A study of Homo sapiens with 12 samples.

Results

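Transcript levels were measured in wild type spheroids of HepG2, a human liver tumour cell line. The series compared them with spheroids in which HIF-1α or HIF-2α was knocked down, and 4 of its 12 arrays carry the genotype wild type. These 4 arrays were chosen by that label alone, and all 18404 genes with a usable probe set were ranked by their mean log2 signal on them. No knockdown array enters a level, a rank or a count below.

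Per the labels' protocols, the spheroids formed in stirred flasks of serum-containing medium and were harvested at an age of 10 days. RNA was purified on columns, amplified with a kit meant for about 250 microdissected cells and labelled with biotin for an Affymetrix array. The design text gives 4 different spheroid experiments, so the arrays stand for separate cultures of 1 cell line. No source used here says if the unmodified genotype was handled with a control vector, or which zone of the spheroid was sampled. The arrays measured bulk RNA, so fewer cells of a type and less RNA per cell cannot be told apart.

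Hepatocytes make most plasma proteins, assemble lipoproteins, detoxify drugs, form bile acids and urea, and release glucose. Fetal hepatocytes share part of this programme but also make alpha-fetoprotein and growth-related proteins that are silenced after birth and often return in liver cancer. Cells in the inner layers of a spheroid can lack oxygen, and HIF-1α and HIF-2α then induce genes for glucose uptake, glycolysis, blood vessel growth and matrix modification.

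The signal of a probe set depends on its probe sequences as well as on transcript number, so ranks order brightness and not molecules. A log2 signal carries no detection call, so the level of genes with little reason to be read in hepatoma cells was used to mark the floor. The 340 olfactory receptor genes, odorant sensors of the nose, had a median of 6.67, and 95% of them lay at or below 7.05, the background bound used here. A second such set, 116 genes of keratin-associated proteins, taste receptors and beta-defensins, spread more widely, with a median of 6.95 and a 95th percentile of 8.25. Genes at or below 7.05 are called near the floor (5548 genes), those between both bounds lower middle (6052 genes) and those above 8.25 upper middle (4964 genes). The top 10% are called high (1840 genes), and the lowest of them had a mean of 10.00. Over all genes, 69.9% lay above the first bound and 10.0% were high. Signals in the lower middle cannot be told from the background of the second set.

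**Figure D1:**
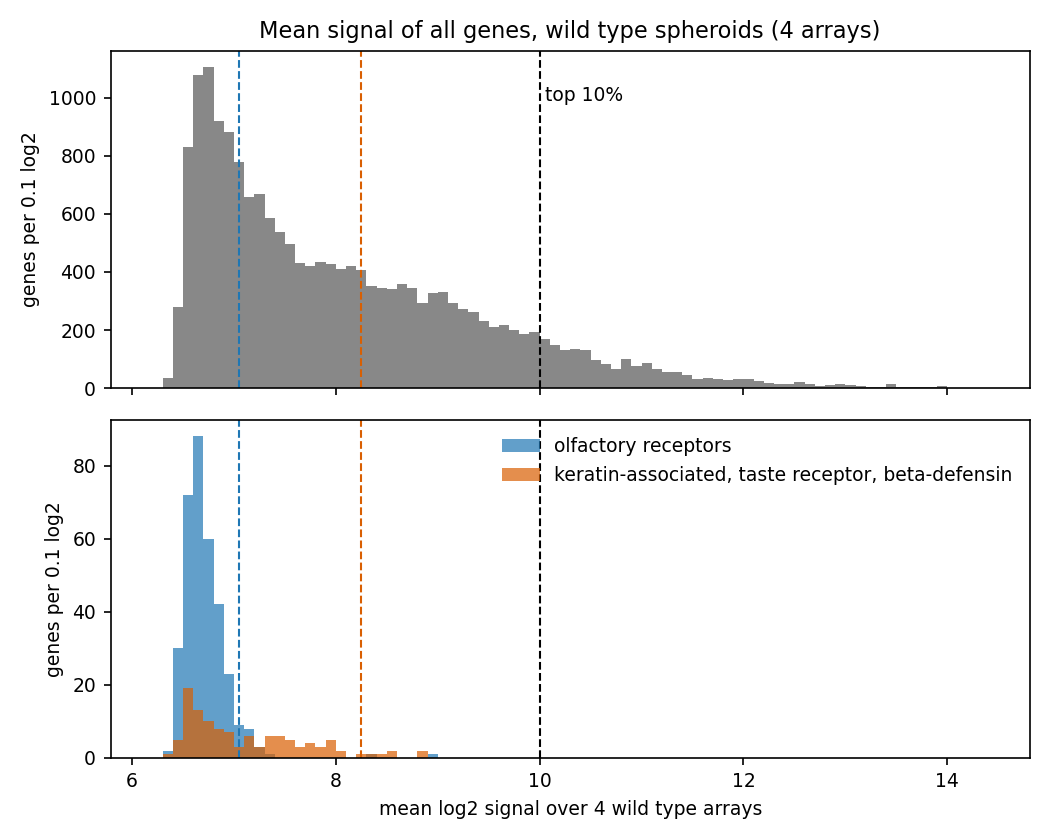
Number of genes (vertical axes) per 0.1 log2 of mean signal over the 4 wild type arrays (horizontal axis), for all 18404 genes above and for the sets of genes used to mark the floor below. Dashed lines stand at 7.05, 8.25 and 10.00; the olfactory receptors gather below the first line and the second set reaches further to the right.

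The arrays were close to each other, with Pearson's r across genes from 0.988 to 0.994 and no array a copy of another. Replicates 1 and 2 stood apart by a raised floor, with olfactory receptor medians of 6.75 and 6.78 against 6.61 and 6.58 on replicates 3 and 4. Their interquartile ranges over all probe sets were narrower, 1.76 and 1.70 against 2.01 on both others. Of the 1840 high genes, 1578 were in the top 10% on every array. The median SD over the 4 arrays was 0.19 in the high class, 0.14 in the upper middle, 0.09 in the lower middle and 0.10 near the floor. Without replicates 1 and 2, 12730 genes lay above the bound, against 12856 with all 4 arrays.

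The 24 brightest genes mixed the translation machinery with liver plasma proteins. They held 6 genes of ribosomal proteins, EEF1A1, a translation elongation factor, and 5 genes of the hepatocyte lists: APOB, ALB, TF, APOA2 and ITIH2. APOB, the structural protein of very low density lipoprotein, ranked 4th and ALB, serum albumin, ranked 7th, with TF, the iron carrier transferrin, at 11th. A2M, the protease inhibitor alpha-2-macroglobulin, had a mean of 13.80 ± 0.27 (SD, n = 4) and ranked 15th. The others included the glycolytic enzymes GAPDH and ENO1, the chaperone HSPA8, the matrix protein FN1 and the oncofetal proteoglycan GPC3. The means of ranks 4 to 11 lay between 13.90 and 13.94, closer together than the SD of any of these 8 genes, and their order was not the same on each array. ALB, for example, was 9th, 6th, 10th and 7th on replicates 1 to 4.

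The very first rank depended on the probe set. FAF2, a protein of endoplasmic reticulum degradation, led on all 4 arrays at 14.28 ± 0.22 (SD, n = 4), yet its other probe set averaged 10.17. PTMA, the nuclear protein prothymosin alpha, had 6 probe sets between 7.29 and 13.91. RPS28, a protein of the small ribosomal subunit, ranked 2nd with probe sets between 10.52 and 14.09. Others of the 24 brightest were discordant too. RPL5 had probe sets between 9.73 and 13.79, and RPL23A had 11.39 and 13.55. The small nuclear RNA RNU2-1 had 9.57 and 13.88, while those of EEF1A1 were closer at 13.35 and 13.97. The levels and ranks of FAF2, PTMA, RPS28, RPL5, RPL23A and RNU2-1 are therefore uncertain. Over the 637 genes with several probe sets the brightest and the dimmest differed by a median of 0.66, and by over 2 in 131 genes.

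Plasma carriers were the brightest of the liver lists. Of 30 measured plasma carrier and secreted proteins, 19 were high and 3 near the floor, and their median percentile rank was 95.8, where 50 is the middle of all genes. ALB read 14.07, 13.88, 14.09 and 13.67 on replicates 1 to 4, a mean of 13.93 ± 0.20 (SD, n = 4). TF read 14.04, 13.82, 14.14 and 13.59, and RBP4, the carrier of vitamin A, 13.42, 13.23, 13.74 and 13.24. These 3 genes were high on each array, and each was highest on replicate 3. SERPINA1, the elastase inhibitor alpha-1-antitrypsin, averaged 11.11 ± 0.18 (SD, n = 4) and HAMP, the iron hormone hepcidin, 11.52 ± 0.23 (SD, n = 4).

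Some liver plasma proteins were at the other end. CRP and SAA1, acute phase proteins that hepatocytes make on stimulation by interleukin-6, averaged 6.71 ± 0.16 and 6.57 ± 0.18 (SD, n = 4), below the background bound. HRG, histidine-rich glycoprotein, averaged 6.54 ± 0.06 (SD, n = 4). HP, the haemoglobin scavenger haptoglobin and also an acute phase protein, was just inside the high class at 10.08, but it was among the most variable genes, with 9.73, 9.67, 10.82 and 10.09 on replicates 1 to 4. TTR, the thyroxine carrier transthyretin, varied as much, at 11.94, 11.46, 12.70 and 11.50. Both genes were highest on replicate 3.

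Lipoprotein genes followed the same pattern. Of 14 measured members 8 were high and 1 was near the floor, with a median percentile of 92.1. APOB read 14.08, 13.94, 14.05 and 13.70, and APOA2, a protein of high density lipoprotein, 13.94, 13.58, 14.07 and 13.77. APOH, which binds phospholipids, averaged 13.40 ± 0.23 (SD, n = 4) and APOC3, an inhibitor of lipoprotein clearance, 11.21 ± 0.24 (SD, n = 4), with its other probe set at 8.99. APOA1, the main protein of high density lipoprotein, averaged 11.62 ± 0.30 (SD, n = 4) on its brighter probe set and 6.94 on its other one, so its level is uncertain. LPA, apolipoprotein(a), was near the floor at 6.87 ± 0.09 (SD, n = 4).

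Clotting factors split widely. Of 24 measured members 11 were high, 8 were in the middle classes and 5 were near the floor, with a median percentile of 87.0. SERPIND1, the thrombin inhibitor heparin cofactor II, was the brightest at 12.56 ± 0.23 (SD, n = 4). The fibrinogen chains FGA, FGG and FGB averaged 12.05 ± 0.25, 11.22 ± 0.16 and 9.72 ± 0.11 (SD, n = 4), and SERPINC1, antithrombin, 11.22 ± 0.32. F2, prothrombin, averaged 10.31 ± 0.24 (SD, n = 4). In contrast F9, clotting factor IX, read 6.60, 6.57, 6.36 and 6.33, in the lowest 1% of genes, and PLG, plasminogen, averaged 6.74 ± 0.05 (SD, n = 4). F13B, a subunit of factor XIII, averaged 6.59 ± 0.17 (SD, n = 4). These 3 genes lay below the background bound on all 4 arrays.

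Complement genes were mostly in the middle classes, where most of all genes also lay. Of 17 measured members 2 were high (11.8%, against 10.0% of all genes). They were C3, the central component of the cascade (13.23 ± 0.14, SD, n = 4), and C5 (10.85 ± 0.12, SD, n = 4). Another 13 were in the middle classes, and C6 and C9, components of the membrane attack complex, were near the floor at 6.72 and 6.58. Above the first bound lay 88.2% of the members, against 69.9% of all genes, and the list median lay at the 56.5 percentile.

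The promoters of bright plasma protein genes are shown because hepatocyte promoters are known for binding sites of HNF1, a liver transcription factor family. The windows run from 250 bases before to 50 after the start site, from RefSeq on GRCh38.p14, written 5′ to 3′ along the gene's strand. Capitals mark GTTAAT on either strand, the core of the HNF1 site. Those printed are the 3 brightest genes with this core among the secreted protein and fetal liver lists: ALB (chr4:73404037-73404336, plus strand), APOH (chr17:66229366-66229665, minus strand) and AFP (chr4:73435971-73436270, plus strand).
ALB: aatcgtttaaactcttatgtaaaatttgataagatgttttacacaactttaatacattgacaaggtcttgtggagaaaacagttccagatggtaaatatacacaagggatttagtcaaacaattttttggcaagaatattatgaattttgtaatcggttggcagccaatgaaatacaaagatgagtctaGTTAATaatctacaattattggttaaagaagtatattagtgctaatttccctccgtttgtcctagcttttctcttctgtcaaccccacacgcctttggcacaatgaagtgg
APOH: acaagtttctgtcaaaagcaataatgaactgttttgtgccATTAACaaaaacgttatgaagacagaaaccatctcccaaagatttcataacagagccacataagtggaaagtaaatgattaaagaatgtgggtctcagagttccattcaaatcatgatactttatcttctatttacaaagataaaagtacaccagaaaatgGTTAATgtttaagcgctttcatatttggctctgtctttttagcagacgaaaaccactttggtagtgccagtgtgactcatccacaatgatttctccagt
AFP: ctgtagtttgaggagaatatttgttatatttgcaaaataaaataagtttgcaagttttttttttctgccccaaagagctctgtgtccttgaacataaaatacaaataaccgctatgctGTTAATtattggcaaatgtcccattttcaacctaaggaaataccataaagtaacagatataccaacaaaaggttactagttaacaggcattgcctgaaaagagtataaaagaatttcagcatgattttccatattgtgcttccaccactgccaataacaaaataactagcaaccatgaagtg
Counted from the start site, the core begins at position -61 in ALB, at -210 and -49 in APOH and at -132 in AFP.

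GTTAAT was found in 16 of 68 windows of the 4 secreted protein lists (23.5%), against 5.10% of 13766 windows of protein-coding genes. In the clotting list it was in 9 of 22 windows (40.9%). By class it was in 7 of 28 high members, 5 of 31 in the middle classes and 4 of 9 near the floor. FGA, FGB and F2 had the core, and so did the near-floor PLG and F13B. The windows of these lists also had fewer G and C bases, with a median of 52.8% against 63.3% over all windows, and the part of base composition in these shares was not tested. A match is a description of letters and not a bound site.

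**Figure D2:**
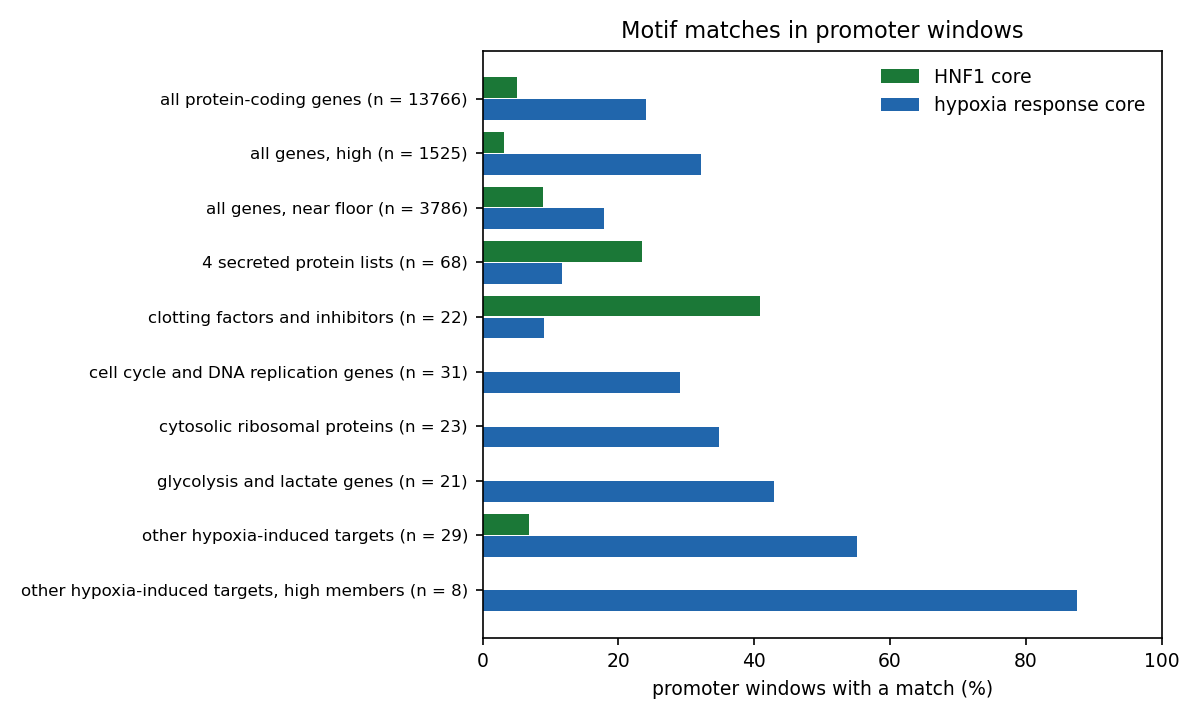
Share of promoter windows (horizontal axis, percent) that hold the HNF1 core GTTAAT or the hypoxia response core ACGTG on either strand, by gene set, with n windows. The HNF1 core was in 40.9% of clotting gene windows and the hypoxia core in 55.2% of windows of the other hypoxia-induced targets, against 5.10% and 3310 of 13766 windows over all genes.

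The transcription factors that hold hepatocyte identity were measured in the middle. Of 18 measured members 2 were high (11.1%, against 10.0% of all genes), 15 were in the middle classes and 1 was near the floor. The list median stood at the 73.9 percentile. NR0B2, a nuclear receptor that represses bile acid synthesis, was the brightest at 11.28 ± 0.42 (SD, n = 4), with 11.15, 10.87, 11.86 and 11.25 on replicates 1 to 4. FOXA1, a pioneer factor of liver enhancers, averaged 10.19 ± 0.12 (SD, n = 4), HHEX, needed for liver bud growth, 9.54 ± 0.10, and CEBPA, a driver of hepatocyte differentiation, 9.10 ± 0.32. FOXA2, another pioneer factor, was among the steadiest at 8.45 ± 0.04 (SD, n = 4). NR1I3, the drug-sensing receptor CAR, was near the floor at 6.79 ± 0.08 (SD, n = 4).

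By the first bound the P450 list lay near all genes, with 73.3% of its members above it against 69.9% over all genes. Above the second bound lay only 3 members (20%), POR among them, against 37.0% of all genes. Another 8 were in the lower middle, where signals cannot be told from the background of the second set. Of 15 measured genes of the P450 list 1 was high, POR, the shared electron donor of these enzymes (10.14 ± 0.19, SD, n = 4). CYP3A4, which oxidises many drugs in adult liver, averaged 6.59 ± 0.15 (SD, n = 4), and CYP2C8 averaged 6.58 ± 0.15 (SD, n = 4). CYP2B6 averaged 6.74 ± 0.07 (SD, n = 4), so these 3 enzymes were near the floor. CYP1A2 and CYP2E1, at 7.20 ± 0.12 and 7.21 ± 0.06 (SD, n = 4), lay in the lower middle. The list median stood at the 50.8 percentile.

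Conjugating and alcohol metabolising enzymes held both extremes. Of 24 measured members 7 were high and 4 near the floor. The aldo-keto reductases AKR1C2 and AKR1C1 averaged 12.78 ± 0.16 and 12.50 ± 0.22 (SD, n = 4), but they are close paralogs, and the other probe set of AKR1C1 averaged 6.97. ALDH1A1, a retinal dehydrogenase, averaged 11.83 ± 0.09 (SD, n = 4). ADH4, an alcohol dehydrogenase, averaged 8.24 ± 0.31 (SD, n = 4), while ADH1B and ADH1C of the same family averaged 6.67 ± 0.07 and 6.61 ± 0.11 (SD, n = 4), near the floor.

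Bile acid genes were spread over the range much as all genes were. ABCC2, the canalicular exporter of bilirubin conjugates, read 12.30, 12.22, 12.64 and 12.33, a mean of 12.37 ± 0.18 (SD, n = 4). CYP27A1, which starts the acidic route of bile acid synthesis, averaged 10.55 ± 0.20 (SD, n = 4), and KLB, the FGF19 co-receptor, 10.03 ± 0.17. CYP7A1, the rate-limiting enzyme of the classic route, lay at 7.07 ± 0.13 (SD, n = 4), right beside the bound. The bile salt exporter ABCB11 averaged 6.57 ± 0.14, the uptake carriers SLCO1B1 and SLC10A1 6.61 ± 0.10 and 7.08 ± 0.05 (SD, n = 4). Of 21 measured members 3 were high (14.3%, against 10.0% of all genes), 11 were in the middle classes and 7 were near the floor. Above the first bound lay 66.7% of the members, against 69.9% of all genes, and the list median stood at the 51.8 percentile.

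Urea cycle and amino acid genes also split. Of 22 measured members 8 were high and 5 near the floor, with a median percentile of 73.8. GLUL, glutamine synthetase, averaged 11.99 ± 0.30 (SD, n = 4) on its brighter probe set and 10.41 on the other. ASS1, which joins citrulline and aspartate, averaged 10.32 ± 0.08 (SD, n = 4), and CPS1, which admits ammonia to the cycle, 9.32 ± 0.08. OTC and ARG1, the cycle's ornithine transcarbamylase and arginase, were near the floor at 6.63 ± 0.12 and 6.86 ± 0.16 (SD, n = 4). The cycle was thus bright at some steps and at the floor at others. TDO2, which opens tryptophan breakdown, averaged 6.59 ± 0.15 (SD, n = 4). MAT2A, the methionine adenosyltransferase of dividing cells, was at 11.89 ± 0.20, and MAT1A, that of adult liver, at 9.79 ± 0.20 (SD, n = 4).

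Among 15 gluconeogenesis and glycogen genes, 2 were high (13.3%, against 10.0% of all genes), 11 were in the middle classes and 2 were near the floor. The list median stood at the 82.8 percentile. PYGL, liver glycogen phosphorylase, averaged 10.61 ± 0.14 (SD, n = 4) and SLC2A2, the liver glucose transporter GLUT2, 9.75 ± 0.31. PCK2, the mitochondrial form of the gluconeogenic PEP carboxykinase, was high at 10.38 ± 0.17, and PCK1, the cytosolic form, was in the lower middle at 7.45 ± 0.13 (SD, n = 4). G6PC1, which releases free glucose, read 8.03, 7.93, 8.85 and 8.05, with replicate 3 above the others. FBP1, which reverses the committed step of glycolysis, and GYS2, liver glycogen synthase, were near the floor at 6.91 ± 0.09 and 6.58 ± 0.16 (SD, n = 4).

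**Figure D3:**
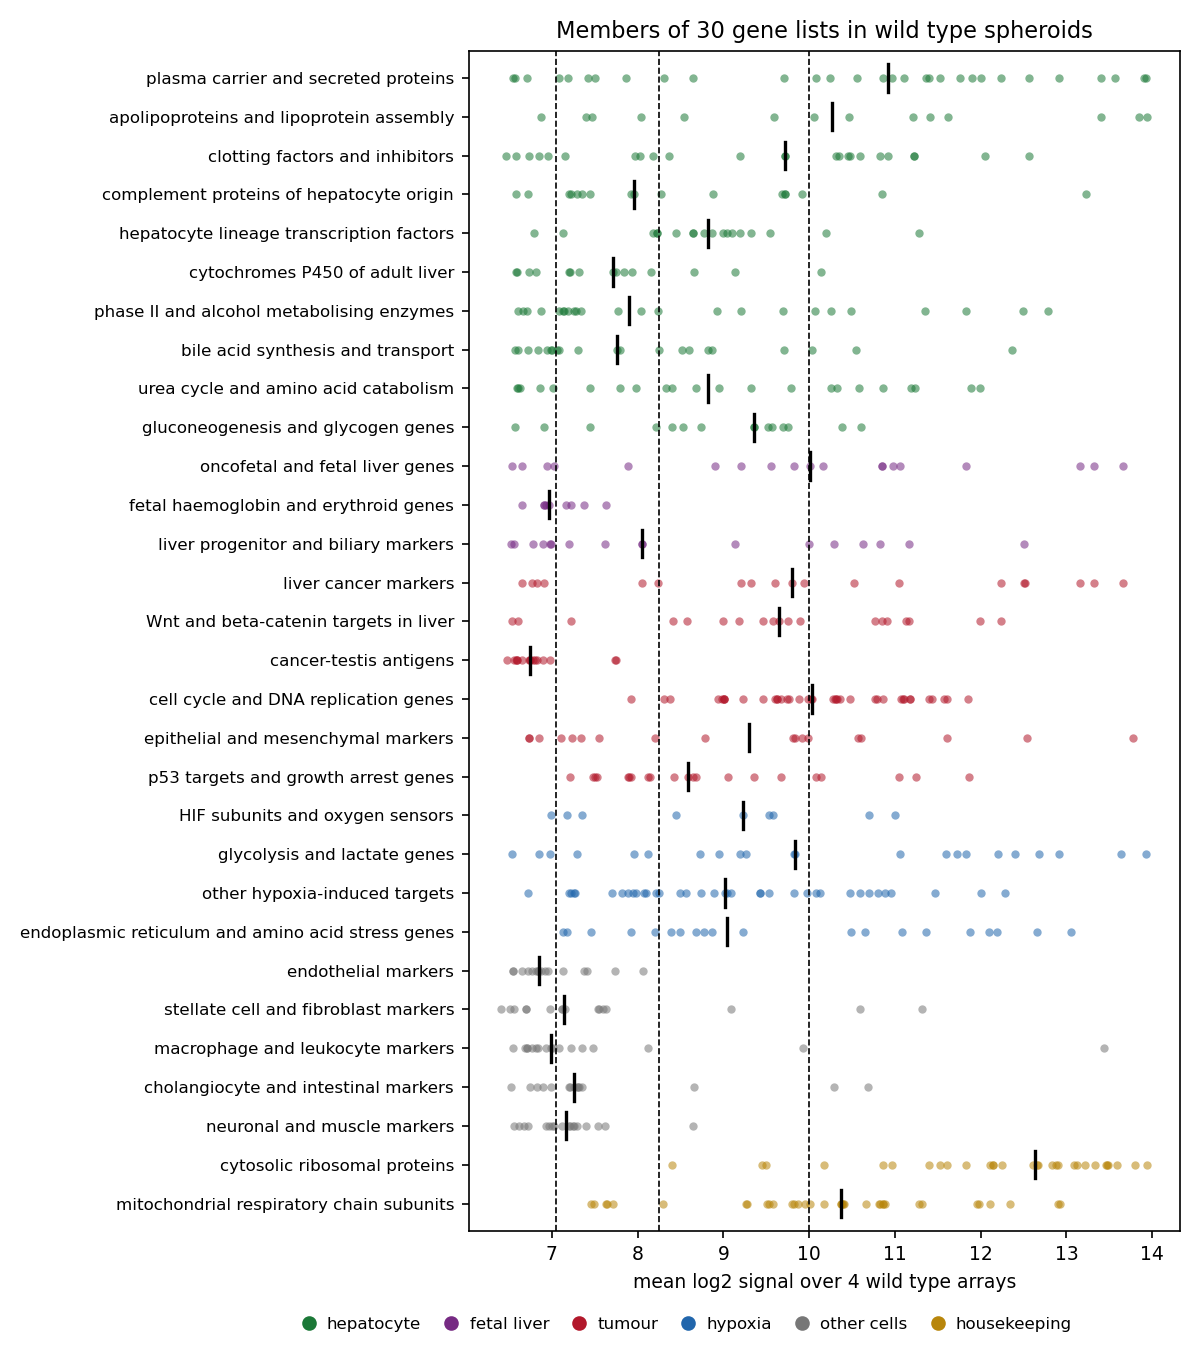
Mean log2 signal over the 4 wild type arrays (horizontal axis) of each measured member (points) of 30 gene lists (rows), with the list median as a black bar; dashed lines stand at 7.05, 8.25 and 10.00. Plasma carriers, lipoproteins, ribosomal proteins and cell cycle genes lie to the right, while erythroid genes, cancer-testis antigens and endothelial markers lie to the left, with no point beyond 8.25.

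Oncofetal genes stood beside the plasma proteins. Of 19 measured members of the oncofetal and fetal liver list 10 were high and 4 near the floor, with a median percentile of 90.0. The high members included the glycolytic enzymes PKM at 11.83 ± 0.14 and ALDOA at 11.06 ± 0.13 (SD, n = 4). GPC3, a proteoglycan of fetal liver and liver cancer, read 13.75, 13.50, 13.96 and 13.43, a mean of 13.66 ± 0.24 (SD, n = 4). AFP, alpha-fetoprotein, read 13.14, 13.02, 13.40 and 13.06, and PEG10, a paternally expressed retrotransposon-derived gene, averaged 13.32 ± 0.15 (SD, n = 4). All 3 were among the 100 brightest genes, as were ALB, TF and APOB. DLK1, a surface protein of hepatoblasts, averaged 10.85 ± 0.14, the fetal RNA-binding protein IGF2BP1 10.98 ± 0.15 and LIN28B, which blocks let-7 maturation, 8.90 ± 0.12 (SD, n = 4). SALL4, a stem cell factor, was near the floor at 6.95 ± 0.13, as was SPINK1, a trypsin inhibitor often high in liver tumours, at 6.65 ± 0.12 (SD, n = 4).

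The measured genes of blood formation, a task of fetal liver, lay low. Of 9 measured haemoglobin and erythroid genes 5 were near the floor and 4 in the lower middle, and none lay above 8.25. The list has 14 symbols, and its measured globins were HBZ, HBE1 and HBB, without the gamma-globins of fetal haemoglobin. HBB, adult beta-globin, averaged 6.90 ± 0.02 (SD, n = 4), and the highest member, the erythroid factor KLF1, 7.63 ± 0.08. Among 17 progenitor and biliary markers 5 were high and 6 near the floor. SPP1, osteopontin, averaged 12.51 ± 0.21, LGR5, a Wnt-dependent stem cell receptor, 11.17 ± 0.38, EPCAM, an adhesion protein of hepatoblasts and bile ducts, 10.63 ± 0.15 and KRT19, a biliary keratin, 10.29 ± 0.28 (SD, n = 4). SOX9, a biliary transcription factor, lay just under the high class at 10.00 ± 0.10 (SD, n = 4). CFTR, the chloride channel of bile ducts, was near the floor at 6.53.

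Of the tumour lists, the targets of Wnt signalling were among the bright ones. Wnt signals stabilise beta-catenin, which acts on these genes and is known to be activated in HepG2. Of 19 measured members 7 were high, 10 were in the middle classes and 2 were near the floor, with a median percentile of 86.2. DKK1, a secreted Wnt inhibitor, read 12.07, 12.07, 12.81 and 11.99, with replicate 3 above the others. NOTUM, which inactivates Wnt proteins, averaged 10.91 ± 0.29, RNF43, which removes Wnt receptors, 9.65 ± 0.19, and AXIN2, a scaffold of the destruction complex, 9.19 ± 0.08 (SD, n = 4). LEF1, a partner of beta-catenin on DNA, was near the floor at 6.60 ± 0.06 (SD, n = 4).

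All 39 measured cell cycle and replication genes lay above the background bound, and 38 above 8.25. TOP2A, which untangles DNA, read 11.61, 11.66, 11.60 and 11.54, a mean of 11.60 ± 0.05 (SD, n = 4), and PLK1, a mitotic kinase, averaged 11.85 ± 0.13. CDK1, the mitotic cyclin-dependent kinase, averaged 9.63 ± 0.16, RRM2, which makes deoxynucleotides, 10.03 ± 0.10, and MKI67, the proliferation antigen Ki-67, 10.03 ± 0.25 (SD, n = 4). Of 21 p53 targets 5 were high and none near the floor, with CCNG1 at 11.87 ± 0.24, MDM2, the ligase that degrades p53, at 11.24 ± 0.10 and CDKN1A, the p21 inhibitor, at 8.68 ± 0.11 (SD, n = 4). GDF15, a stress-induced cytokine, averaged 11.05 ± 0.07 (SD, n = 4).

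Cancer-testis antigens were near the floor in 14 of 16 measured members, with none above 8.25. PRAME, a melanoma antigen, averaged 6.83 ± 0.01 (SD, n = 4), and the highest, CTAG2, 7.75 ± 0.14. TERT, the catalytic subunit of telomerase, lay just under the second bound at 8.23 ± 0.20 (SD, n = 4). Among 19 liver cancer markers 8 were high and 4 near the floor; MDK, the growth factor midkine, averaged 9.94 ± 0.18 (SD, n = 4).

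Of 18 measured epithelial and mesenchymal markers 5 were high, 10 were in the middle classes and 3 were near the floor. The hepatocyte keratins KRT8 and KRT18 averaged 12.54 ± 0.21 and 11.61 ± 0.26 (SD, n = 4). CDH1, E-cadherin, averaged 8.78 ± 0.27 and CDH2, N-cadherin, which hepatocytes also carry, 9.98 ± 0.21 (SD, n = 4). VIM, the mesenchymal filament vimentin, averaged 6.74 ± 0.05 (SD, n = 4), near the floor, as did ZEB2, a repressor of E-cadherin, at 6.74 ± 0.09. The related ZEB1 read 8.14, 8.41, 8.13 and 8.12, with replicate 2 above the others. FN1, fibronectin, is both a mesenchymal marker and a plasma protein of hepatocytes, and averaged 13.78 ± 0.19 (SD, n = 4).

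**Figure D4:**
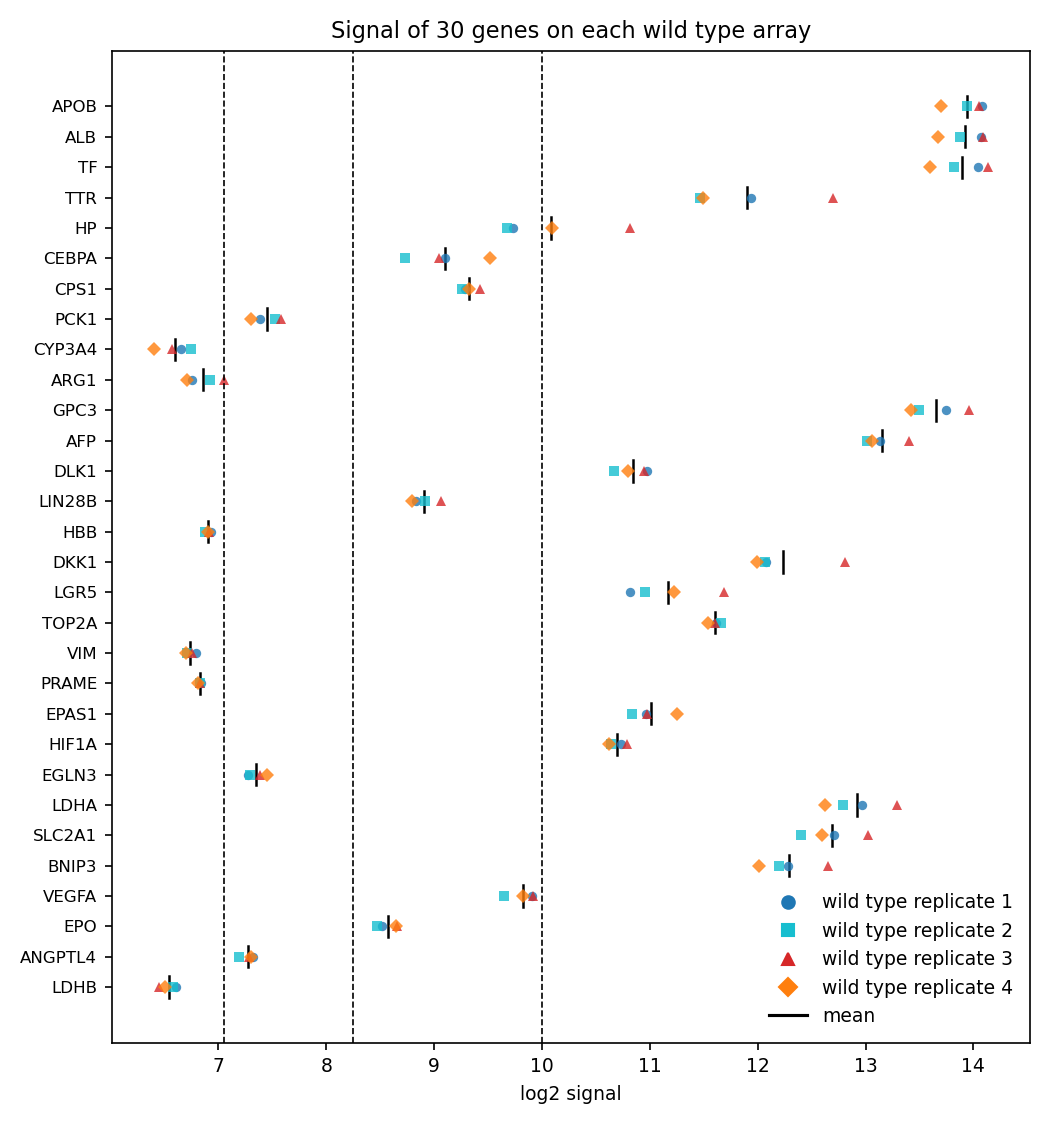
Log2 signal (horizontal axis) of 30 genes (rows) on each of the 4 wild type arrays (symbols), with the mean as a black bar; dashed lines stand at 7.05, 8.25 and 10.00. ALB, AFP and LDHA stay far right of the last line on each array, CYP3A4, VIM and LDHB stay left of the first, and TTR, HP and DKK1 show replicate 3 above the others.

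The transcripts of HIF-1α and HIF-2α were both high. EPAS1, encoding HIF-2α, read 10.96, 10.83, 10.97 and 11.26, and HIF1A, encoding HIF-1α, 10.74, 10.64, 10.79 and 10.62. Their partner ARNT averaged 9.58 ± 0.11 (SD, n = 4). HIF3A, which can oppose the other subunits, lay in the lower middle at 7.17 ± 0.11, and ARNT2, an alternative partner, near the floor at 6.99 ± 0.09 (SD, n = 4). Of the prolyl hydroxylases that mark HIF for destruction in oxygen, EGLN1 averaged 9.23 ± 0.08 and EGLN3, itself a HIF target, 7.35 ± 0.08 (SD, n = 4). HIF is regulated mainly through protein stability, which an array does not read.

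The glycolysis list held some of the brightest genes of the array. Of 22 measured members 10 were high, 9 were in the middle classes and 3 were near the floor, with a median percentile of 88.3. GAPDH, the glyceraldehyde phosphate dehydrogenase, read 13.98, 13.90, 14.17 and 13.67, and ENO1, the enolase, averaged 13.63 ± 0.22 (SD, n = 4). LDHA, which turns pyruvate to lactate, read 12.96, 12.79, 13.29 and 12.62, whereas LDHB, the other main lactate dehydrogenase subunit, read 6.61, 6.58, 6.45 and 6.51. LDHA was thus among the 100 brightest genes and LDHB below the background bound on each array. The glucose transporters SLC2A1 and SLC2A3 averaged 12.68 ± 0.26 and 12.41 ± 0.21 (SD, n = 4). HK2, an inducible hexokinase, averaged 9.83 ± 0.16, while HK1, the common form in other tissues, averaged 6.85 ± 0.05 (SD, n = 4). PDK1, which keeps pyruvate out of mitochondria, read 9.67, 9.74, 10.29 and 9.66.

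Hypoxia-induced genes outside glycolysis were spread over the range. Of 37 measured members 11 were high, 25 were in the middle classes and 1 was near the floor, with a median percentile of 77.4. BNIP3, a mitophagy receptor, read 12.28, 12.20, 12.65 and 12.02, a mean of 12.29 ± 0.27 (SD, n = 4). IGFBP1, which binds insulin-like growth factors and is also a liver secreted protein, read 11.67, 11.77, 12.58 and 12.02. NDRG1, a stress-response protein, averaged 10.70 ± 0.25, LOX, which cross-links collagen, 10.59 ± 0.24 and P4HA1, a collagen prolyl hydroxylase, 10.08 ± 0.26 (SD, n = 4). VEGFA, the growth factor of blood vessels, averaged 9.82 ± 0.12, and EPO, erythropoietin, known to be made by HepG2 cells, 8.57 ± 0.09 (SD, n = 4). ADM, the vasodilator adrenomedullin, lay at the second bound at 8.25 ± 0.14 (SD, n = 4). ANGPTL4, an inhibitor of lipoprotein lipase, and IGFBP3 were in the lower middle at 7.27 ± 0.06 and 7.20 ± 0.12 (SD, n = 4), and KDR, the endothelial VEGF receptor, near the floor at 6.73 ± 0.12. Known targets of the HIF pathway thus lay both in the high class and in the lower middle.

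Promoters are shown for the 3 brightest genes of both hypoxia lists whose window holds ACGTG, the core of the hypoxia response element. Capitals mark ACGTG on either strand, where overlapping matches form CACGTG, which other factors also bind. GAPDH lies at chr12:6535014-6535313 (plus strand), LDHA at chr11:18394313-18394612 (plus strand) and BNIP3 at chr10:131981874-131982173 (minus strand) of GRCh38.p14, from RefSeq.
GAPDH: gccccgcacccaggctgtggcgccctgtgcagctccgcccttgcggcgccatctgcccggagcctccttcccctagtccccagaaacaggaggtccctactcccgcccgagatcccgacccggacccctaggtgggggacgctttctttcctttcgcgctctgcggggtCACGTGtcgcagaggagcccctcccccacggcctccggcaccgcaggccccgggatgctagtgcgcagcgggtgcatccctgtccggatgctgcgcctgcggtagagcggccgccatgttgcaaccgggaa
LDHA: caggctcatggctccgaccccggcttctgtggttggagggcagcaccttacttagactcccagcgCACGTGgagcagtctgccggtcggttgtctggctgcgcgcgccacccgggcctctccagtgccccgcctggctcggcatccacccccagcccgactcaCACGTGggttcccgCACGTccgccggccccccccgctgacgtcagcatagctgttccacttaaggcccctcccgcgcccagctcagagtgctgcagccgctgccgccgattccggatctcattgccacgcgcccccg
BNIP3: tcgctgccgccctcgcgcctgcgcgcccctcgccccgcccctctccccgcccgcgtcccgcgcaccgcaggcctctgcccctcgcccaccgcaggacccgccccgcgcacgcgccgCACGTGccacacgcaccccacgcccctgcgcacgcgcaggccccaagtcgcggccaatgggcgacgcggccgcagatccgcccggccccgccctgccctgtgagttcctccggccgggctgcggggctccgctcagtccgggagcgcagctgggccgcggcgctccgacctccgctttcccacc
LDHA had 3 separate stretches, beginning at -185, -87 and -73 from the start site, GAPDH 1 at -81 and BNIP3 1 at -134.

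ACGTG was in 25 of 50 windows of the glycolysis and other hypoxia-induced lists (50%), against 3310 of 13766 windows of protein-coding genes. By class it was in 12 of 17 high members, 13 of 29 in the middle classes and 0 of 4 near the floor. Among all genes it was in 32.1% of windows in the high class and 17.8% near the floor, so brighter genes held it more often in general. Windows of high genes also had a higher median ratio of observed to expected CpG, 0.87 against 0.41 near the floor, and ACGTG contains a CpG; the part of this in the shares was not tested.

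Stress genes of the endoplasmic reticulum were all above the bound. Of 20 measured members 9 were high and 11 in the middle classes. HSPA5, the main chaperone there, averaged 13.06 ± 0.20, ATF4, the factor of the amino acid response, 11.36 ± 0.32 (9.82 on its other probe set), TRIB3 9.22 ± 0.16, ASNS, asparagine synthetase, 8.69 ± 0.22 and DDIT3, the stress factor CHOP, 8.78 ± 0.08 (SD, n = 4). CHAC1, which breaks down glutathione, and ATF3 were in the lower middle at 7.13 ± 0.09 and 7.18 ± 0.16.

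Markers of other cell types served as a check of the label. Of 81 such genes 41 lay above the first bound (50.6%, against 69.9% of all genes) and 9 above the second (11.1%, against 37.0%). In the high class were 5 (6.2%, against 10.0%). All 16 endothelial markers lay below 8.25, with CDH5, the vascular cadherin, at 6.92 ± 0.08 (SD, n = 4) and PECAM1, a junction protein, at 8.06 ± 0.21 on its brighter probe set and 6.54 on the other. PTPRC, the leukocyte antigen CD45, averaged 6.55 ± 0.15, DCN and LUM, fibroblast proteoglycans, 6.52 ± 0.15 and 6.41 ± 0.11, and COL1A1, the main fibroblast collagen, 7.63 ± 0.08 (SD, n = 4). Of 18 neuronal and muscle markers 10 lay above the first bound and 1 above the second, NKX2-5, a heart factor, at 8.64 ± 0.22 (SD, n = 4). Above the first bound lay 5 of 16 endothelial, 10 of 16 stellate cell and fibroblast and 10 of 15 cholangiocyte and intestinal markers. ALB, AFP and KRT8 were high and CDH5, PTPRC, DCN and LUM near the floor, but other members of the marker lists were bright. RELN averaged 11.31 and ACTA2 9.09 in the list of DCN and LUM, and LYZ 13.44 and CD68 9.93 in that of PTPRC. The check of the label was therefore mixed.

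The 5 high genes of these lists were LYZ, RELN, LOX, KRT19 and VIL1. Of these, LOX was also counted above among the hypoxia-induced genes and KRT19 among the progenitor and biliary markers. LYZ, lysozyme, known from macrophages and glands, read 13.62, 13.33, 13.73 and 13.09 and ranked 33rd of all genes, while PTPRC and CD163, defining markers of leukocytes and macrophages, were near the floor. Of the 17 measured macrophage and leukocyte markers 10 were near the floor and 7 above the first bound, among them TYROBP, a signalling adaptor of myeloid cells, at 8.12 ± 0.07, and CD14, the endotoxin co-receptor, at 7.22 ± 0.07 (SD, n = 4). RELN, reelin, used as a stellate cell marker, averaged 11.31 ± 0.18, and VIL1, villin of microvilli, 10.69 ± 0.17 (SD, n = 4). CD68, a lysosomal protein used as a macrophage marker, averaged 9.93 ± 0.13, and ACTA2, smooth muscle actin, 9.09 ± 0.26 (SD, n = 4).

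Small nuclear and nucleolar RNAs had the largest spread between arrays. All 12 genes with the largest SD above the bound were small non-coding RNAs: 9 small nucleolar RNAs, which guide the modification of ribosomal RNA, the spliceosomal RNU5D-1 and RNU4-1, and the vault RNA VTRNA1-1. SNORA22 read 10.92, 10.11, 12.28 and 11.94, and SNORD32A 10.13, 9.30, 10.93 and 11.20. VTRNA1-1 read 7.08, 7.10, 7.74 and 9.50. Of 122 small nucleolar RNAs above the bound, 105 were higher on both replicates 3 and 4 than on both replicates 1 and 2, against 4306 of 12127 protein-coding genes. Their median SD was 0.39, against 0.12 for protein-coding genes, and 0.31 against 0.10 after quantile normalization. This split matches the arrays with a raised floor, and its part in the spread was not tested.

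Protein-coding genes with the largest SD, chosen after their values were seen, included C2, a complement protease (9.30, 9.05, 10.44 and 10.07 on replicates 1 to 4), HAL, histidine ammonia-lyase (7.84, 8.18, 9.26 and 8.07), and UBD, an interferon-induced ubiquitin-like protein (8.32, 8.57, 7.35 and 7.39). APOM, an apolipoprotein, read 11.22, 10.87, 12.13 and 11.39. C2 was higher and UBD lower on replicates 3 and 4, while HAL and APOM were highest on replicate 3. Replicate 3 had the highest list mean in 18 of the 30 lists and the lowest in 3, and replicate 2 had the lowest in 22. After quantile normalization replicate 3 was highest in 15 lists and lowest in 11, and replicate 2 lowest in 10, so the order of the arrays depends on the scaling. The glycolysis list averaged 10.15, 10.02, 10.35 and 10.12 on replicates 1 to 4, and 10.15, 10.11, 10.22 and 10.15 after quantile normalization. Ribosomal proteins averaged 12.23, 11.94, 12.47 and 12.08, and 12.19, 12.09, 12.26 and 12.19 after it. Replicate 3 was highest in both lists under either scaling. Cell cycle genes turned instead, from 10.11, 10.03, 10.16 and 10.13 to 10.15, 10.17, 10.01 and 10.10, with replicate 3 first highest and then lowest.

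**Figure D5:**
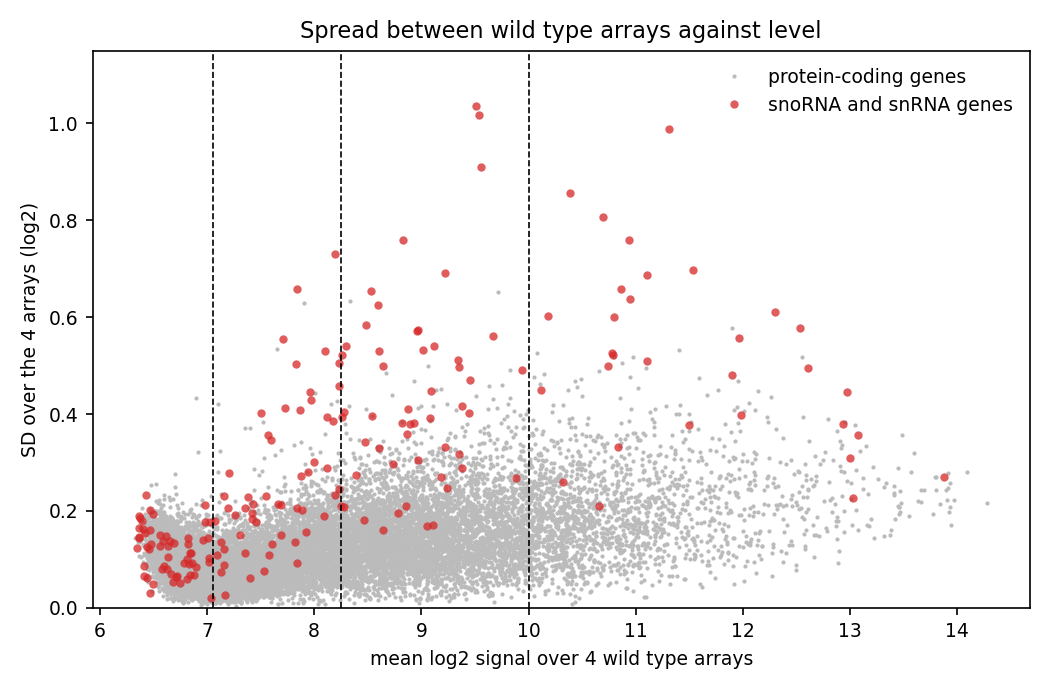
SD over the 4 wild type arrays (vertical axis, log2) against mean log2 signal (horizontal axis) for protein-coding genes (grey) and for small nucleolar and small nuclear RNA genes (red); dashed lines stand at 7.05, 8.25 and 10.00. Above the first line many red points lie higher than the grey ones, with median SDs of 0.39 for small nucleolar RNAs and 0.12 for protein-coding genes.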

How the data were processed

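The authors deposited 1 table of log2 values, 32321 probe sets by 12 arrays; the base was inferred from the range. Background correction, summarization and normalization were not stated in any source at hand. Of the probe sets, 19158 had 1 gene symbol, 1388 several and 11775 none. Symbols were updated by Entrez identifier through a RefSeq table (19128 matched), and the brightest probe set over the wild type arrays stood for a gene, leaving 18404. With 1 group there was no test. A gene's percentile is the share of genes ranked below it. The 30 lists hold 661 symbols, of which 581 were measured and 80 were not analysed here; members and lists were chosen with earlier results of these data known. Named genes were preset anchors, the 24 brightest, the 3 highest and lowest of each list, the 12 of largest SD above the bound, high markers of other cells and the nearest to the bound; all others were chosen after their values were seen. Promoter windows matched 14230 genes, 13766 of them protein-coding. A planned description of protein lengths was not run. Python 3.11.15, pandas 2.3.3 and numpy 2.4.6 were used, and the ranking was tested on simulated data. The number of arrays limits the precision. Alternatives were quantile normalization, medians, other probe set rules, other bounds and left-out arrays.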

Additional observations from a re-analysis of the deposited data

Results flagged for a closer look

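In 9 of 306 genes and lists, 1 array lay far from the other 3 by Dixon's criterion, which chance alone meets in about 1 in 20 groups. Wild type replicate 3 was apart upward for G6PC1 (8.85, others 7.93 to 8.05), DKK1 (12.81, others 11.99 to 12.07), PDK1 (10.29, others 9.66 to 9.74) and MPC1, the mitochondrial pyruvate carrier (11.56, others 10.42 to 10.61). The fetal haemoglobin and erythroid list had its lowest mean there, 7.04 against 7.09 to 7.10, but after quantile normalization it read 7.09, 7.06, 7.07 and 7.11, with replicate 3 no longer the lowest. Replicate 2 was apart for ZEB1 (8.41, others 8.12 to 8.14), for PLG (6.67, others 6.75 to 6.77) and for GP2, a zymogen granule protein (6.79, others 6.72 to 6.73). Replicate 4 was low for CYP2B6 (6.63, others 6.77 to 6.78). The PLG, CYP2B6 and GP2 values lie near the floor.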

How the results depend on the processing

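The number of genes above the background bound, 12856, fell to 6804 with the bound from keratin-associated, taste receptor and defensin genes and to 11273 with the 99th percentile of olfactory receptors. Members of the other-cell lists above the bound numbered 41, and 27 and 9 under these bounds in the order 99th percentile and second family. In the other settings 12730 to 12931 genes lay above it, and none of the 13 counts compared there (genes above the bound, and members above it or high in each of the 6 groups of lists) moved by over 1.5 times; class counts of single lists were not recomputed. Averaging a gene's probe sets moved 25 of 288 named gene levels and 5 of 30 list percentiles by more than the SD between arrays. Only genes with several probe sets can change level under averaging. They were a minority of the 288, and the 25 were most of them, so levels of such genes depend on the probe set rule. Medians over arrays, and leaving out replicates 1 and 2, moved 2 list percentiles each, and leaving out replicate 3 moved 1. No paired analysis was possible because 1 group was described and no groups were compared. The level of genes between 7.05 and 8.25 is limited by background.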

Other observations

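A further promoter motif, CCAAT, the site of the factor NF-Y, was searched on both strands after the values had been seen. It was in 26 of 31 windows of cell cycle and replication genes (83.9%) and in 16 of 20 windows of endoplasmic reticulum and amino acid stress genes (80%), against 36.4% of all protein-coding windows. The mitochondrial respiratory chain list held it in 6 of 30 windows (20%), with 21 of its 36 measured members in the high class. TATAAA, the TATA box, was in 6 of 12 windows of the P450 list (50%) and in 1239 of 13766 windows in all, 7.41% in the high class and 16.1% near the floor.

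Probe sets for microRNA hairpins were mostly near the floor, 128 of 173, and none was high; they read precursor or host transcripts and not the mature RNA. MIR122, whose product is the main microRNA of adult liver, averaged 6.47 ± 0.13 (SD, n = 4), in the lowest 1% to 2% of genes. MIR21 averaged 8.57 ± 0.41 and MIR210, a hypoxia-induced microRNA, 8.26 ± 0.12 (SD, n = 4). All 3 were chosen after their values were seen.

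Among the 340 olfactory receptors, OR2H2 and OR12D3 stood well above the others, at 8.97 ± 0.20 and 8.33 ± 0.22 (SD, n = 4). A second probe set of each averaged 6.93 and 6.65. PLCG2, a phospholipase of immune cells, averaged 13.42 ± 0.18 (SD, n = 4) on 1 probe set and 6.99 on the other. RAC1, a small GTPase, was in the lower middle at 7.65 ± 0.53 (SD, n = 4) and varied between 7.06 and 8.28.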
